A study of Bos taurus with 12 samples.

Results

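The respiratory chain genes of bovine blood were followed across 12 libraries, 1 for each of 12 lactating Holstein cows. Genes were chosen by name from the deposited count table: the subunits encoded by mitochondrial DNA (ND1 to ND6, ND4L, CYTB, COX1 to COX3, ATP6 and ATP8), the 4 succinate dehydrogenase genes, and the nuclear families whose symbols begin with NDUFA, NDUFB, NDUFC, NDUFS, NDUFV, UQCR, COX4I, COX5, COX6, COX7, COX8 or ATP5, without the NDUFAF assembly factors. Of 97 rows with such a name, 92 had a mean raw count of at least 10, and these 92 are among the 11990 genes tested out of 27429 in the table. They comprise 13 genes of mitochondrial DNA (mtDNA) and 79 nuclear genes, of which 37 belong to complex I, 4 to complex II, 8 to complex III, 12 to complex IV and 18 to complex V (ATP synthase). CYC1, the haem-carrying subunit of complex III, lies outside the naming rule and is given with the electron carriers.

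Trace elements had been given by injection around calving to 6 of the cows (supplemented cows), and the other 6 served as controls (control cows). All were females of 1 breed, and blood from the jugular vein was taken on day 7 after calving. Which elements, at which dose and on which day, is not stated in the labels. RNA was depleted of haemoglobin transcripts before paired-end sequencing, and the labels call the material both blood and white blood cells.

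The respiratory chain passes electrons from NADH (complex I) and succinate (complex II) through ubiquinone to complex III, cytochrome c and complex IV, where oxygen is reduced. Complexes I, III and IV pump protons across the inner mitochondrial membrane, and complex V makes ATP from that gradient. Complexes I, III, IV and V are built from subunits of both genomes, whereas complex II is encoded in the nucleus alone. The mtDNA genes are transcribed as long precursors from both strands, with ND6 alone on the strand opposite to the other protein genes, while each nuclear subunit gene has a promoter of its own. Lymphocytes depend more on the chain for ATP than mature neutrophils, which hold few mitochondria and rely largely on glycolysis, and mature mammalian red cells hold none.

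Total counts were 6.78 to 16.9 M per library in supplemented cows and 6.78 to 11.3 M in control cows. White blood cell markers were present in every library, but their levels differed widely between cows. The summed level of 13 neutrophil markers reached 108102 CPM (counts scaled to a common library total with TMM factors) in supplemented cow 6, whereas the other supplemented cows spanned 1052 to 5512 CPM and control cows 615 to 14481 CPM. The 7 B cell markers summed to 649 to 4487 CPM in supplemented cows and 1373 to 4522 CPM in control cows, lowest in supplemented cow 6 (649 CPM), supplemented cow 2 (806 CPM), control cow 5 (1373 CPM) and control cow 4 (1760 CPM). Of 8 erythroid markers 7 were found and CA1 was at 0 in every library. Supplemented cow 6 therefore stands apart, and the respiratory chain results that it moves most are given with and without it. In RNA from mixed blood cells, fewer cells of a type and less RNA per cell cannot be told apart.

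The first comparison set the mitochondrial genes against the nuclear ones within each library. The 13 mtDNA genes took 1.75 to 4.66% of all counts in supplemented cows (median 4.24%) and 3.23 to 4.63% in control cows (median 3.51%). The 79 nuclear genes took 0.579 to 0.878% in supplemented cows (median 0.812%) and 0.709 to 0.876% in control cows (median 0.814%). The widest 95% Wilson interval of any of these shares was ± 0.0154 percentage points for mtDNA and ± 0.00689 for nuclear genes, which covers counting error only. Both shares thus differed between cows by far more than counting error, and the groups overlapped for both.

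Each nuclear respiratory chain count was matched by about 4 to 5 mitochondrial ones in nearly every cow. The ratio of summed mtDNA to summed nuclear counts was 5.42, 5.04, 5.35, 5.09, 5.06 and 3.01 in supplemented cows 1 to 6. In control cows 1 to 6 it was 5.16, 5.28, 4.17, 4.55, 4.72 and 4.47. Supplemented cow 6 was the lowest of the 12, and the other 11 libraries lay between 4.17 and 5.42. On the log2 scale the ratio averaged 2.25 ± 0.32 in supplemented and 2.24 ± 0.13 in control cows (SD, 6 cows each), a difference of 0.0098. Without supplemented cow 6 the supplemented mean was 2.38 ± 0.049 (SD, n = 5) and the difference was 0.14, with the supplemented range of 2.33 to 2.44 still holding control cows 1 and 2 (2.37 and 2.40). Because the ratio is taken within a library, it does not depend on how libraries are scaled to each other. It was left untested, because a score over genes picked by name carries no p here.

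**Figure D1:**
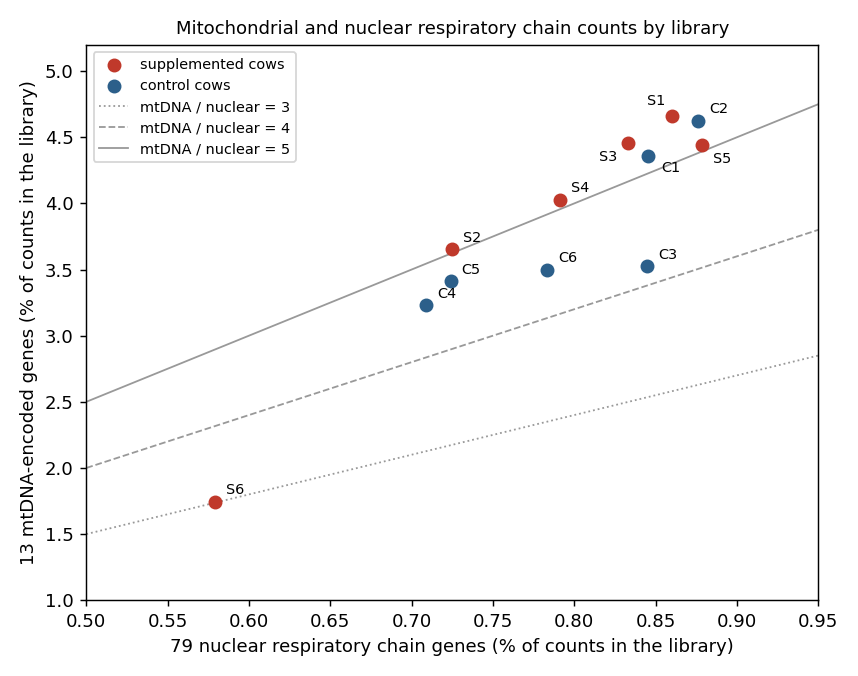
Percent of all counts in the 13 mtDNA genes (vertical axis) against percent in the 79 nuclear respiratory chain genes (horizontal axis). Each point is a library (S, supplemented cows; C, control cows) and the lines mark mtDNA to nuclear ratios of 3, 4 and 5. Supplemented cow 6 lies at 1.75% and 0.579%, near the line for 3, and the other 11 libraries lie between the ratios 4.17 and 5.42.

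The low ratio of supplemented cow 6 came with a low mtDNA level, not with a high nuclear one. Its mtDNA genes summed to 24389 CPM, below the 30948 to 45578 CPM of the other 11 libraries. Its nuclear genes summed to 8091 CPM, inside the range of 6798 to 8491 CPM of the others. That level depends on a TMM factor of 0.717 for this library, against 0.946 to 1.09 in the other 11. As a share of counts, before such scaling, its nuclear genes were also the lowest, at 0.579% against 0.709 to 0.878%. This library was the lowest of the 12 for 12 of the 13 mtDNA genes, the exception being COX2, at 951 CPM in supplemented cow 6 and 946 CPM in control cow 4. Of the 79 nuclear genes, 25 were at their highest scaled CPM in this library and 11 at their lowest. It also had the highest neutrophil and the lowest B cell marker sums, and the part of cell composition in its low mtDNA level was not tested. Control cow 4 had the next highest neutrophil marker sum, 14481 CPM, and the next lowest mtDNA level, 30948 CPM. Its nuclear level of 6798 CPM was the lowest of the 12, and its ratio was 4.55. Neutrophil marker sum and mtDNA level did not rank alike over all cows. Control cow 6 had the lowest neutrophil marker sum, 615 CPM, and an mtDNA level of 32589 CPM, the next lowest after control cow 4. Control cow 5 and supplemented cow 2, with 6234 and 5512 CPM of neutrophil markers, had 36153 and 36670 CPM of mtDNA genes.

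The mtDNA genes of complex I were all lowest in supplemented cow 6, and the groups overlapped for each of them. ND1, a subunit of the membrane arm near the ubiquinone site, ran from 1442 to 3011 CPM in supplemented cows (median 2431) and from 1817 to 2636 CPM in control cows (median 2132). ND4, a proton-pumping subunit, was at 1723 to 3267 CPM in supplemented cows (median 2901) and 2189.7 to 3202 CPM in control cows (median 2553). Medians of both genes were higher in supplemented cows, and the supplemented range enclosed the control range. ND2, ND5 and ND6 had slightly lower means in supplemented cows: ND5 averaged 1809 ± 447 CPM there and 1867 ± 177 CPM in control cows (SD, 6 cows each). ND6 ranged from 283 to 463 CPM in supplemented and from 347 to 457 CPM in control cows, the smallest spread between cows of any mtDNA gene (SD of log2 CPM 0.20). ND3, a short subunit at the joint of the arms, had one of the largest spreads (SD 0.38), with 583 to 1445 CPM in supplemented cows and 746 to 1364 CPM in control cows. ND4L, whose reading frame overlaps that of ND4, had 109 to 243 CPM in supplemented cows and 139 to 223 CPM in control cows.

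COX2, which carries the copper centre that takes electrons from cytochrome c, had the largest difference between the groups of any mtDNA gene. It ran from 951 to 2013 CPM in supplemented cows (median 1707) and from 946 to 2134 CPM in control cows (median 1321). The whole control range enclosed the supplemented one, and the log2 fold change (supplemented over control) was 0.23 ± 0.22 (SE), or 0.36 ± 0.18 without supplemented cow 6. COX1, the catalytic core of complex IV, had 9951 to 18482 CPM in supplemented cows (median 15759) and 11374 to 18529 CPM in control cows (median 14047). COX3, the third core subunit from mtDNA, averaged 5282 ± 1207 CPM in the supplemented group, against 5336 ± 914 CPM in the control group (SD, 6 cows each). Of the complex V genes, ATP6, a part of the proton channel, had 1763 to 2828 CPM in supplemented (median 2559.7) and 1798 to 2827 CPM in control cows (median 2161). ATP8, a small stalk subunit, had 236 to 467 CPM in supplemented cows and 279 to 427 CPM in control cows, and like ATP6 was lowest in supplemented cow 6. CYTB, the only complex III subunit from mtDNA, averaged 2375 ± 486 CPM in the supplemented group, against 2295 ± 433 CPM in the control group (SD, 6 cows each).

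Over all 12 libraries, the make-up of the mitochondrial transcripts was steadier than their sum. The summed CPM differed 1.87-fold between highest and lowest library, and a gene's share at most 1.61-fold, for ND3. The low end of the sum was supplemented cow 6, and the other 11 libraries spanned 30948 to 45578 CPM. Over those 11, the shares of ND3, COX2, CYTB and ND5 spread wider in proportion than the sum. COX1 held 36.3 to 43.2% of the mtDNA counts and COX3 12.8 to 15.9%, over all 12 libraries. Such shares are not corrected for transcript length and do not rank the genes by molecule number, but they can be followed from cow to cow. In supplemented cow 6 COX1 held 40.8% and COX3 13.3%, both inside the range of the other libraries, whereas ATP6 held 7.23%, above the 5.72 to 6.58% of the other 11. The widest Wilson interval of a gene's share was ± 0.192 percentage points. COX2 varied beyond its counting error, with 3.90 to 4.58% in supplemented cows, against 3.06% in control cow 4, 3.21% in control cow 1 and 4.76% in control cow 2. CYTB held 5.74 to 6.61% in supplemented cows, against 7.76% in control cow 4, where COX2 was low, and 5.12% in control cow 3. Control cows therefore spanned a wider range than supplemented cows for both genes. In the RefSeq annotation of the assembly ARS-UCD2.0, ATP8 overlaps ATP6, ATP6 overlaps COX3, ND4L overlaps ND4, and ND5 overlaps ND6, so the split of counts within each of these pairs is uncertain.

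Among nuclear genes, those of complex I were the most numerous. Their summed level was 1805 to 2125 CPM in supplemented cows (median 2008) and 1702 to 2211 CPM in control cows (median 1952). NDUFS1, the largest iron-sulphur subunit of the arm that projects into the matrix, had 59.2 to 96.5 CPM in supplemented cows (median 88.2) and 52.7 to 86.9 CPM in control cows (median 75.1). NDUFV1, which binds NADH and its flavin, had 74.8 to 123 CPM in supplemented cows (median 106) and 83.5 to 150.1 CPM in control cows (median 119). These 2 subunits of the same arm had opposite signs, with log2 fold changes of 0.20 ± 0.16 for NDUFS1 and -0.17 ± 0.18 for NDUFV1 (SE). Without supplemented cow 6 that of NDUFV1 was -0.090 ± 0.17. The accessory subunits NDUFB1 and NDUFA10 had the lowest p in each direction within complex I. NDUFB1 owed its log2 fold change of 0.33 ± 0.23 (SE) to supplemented cow 6, at 37.3 CPM, since every other library lay between 13.4 and 22.0 CPM and its value without that cow was 0.084. NDUFA10 averaged 70.6 ± 9.0 CPM in the supplemented group, against 78.1 ± 6.27 CPM in the control group (SD, 6 cows each), with a log2 fold change of -0.15 ± 0.11 (SE), or -0.086 ± 0.099 without supplemented cow 6.

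Complex II, which is also the succinate dehydrogenase of the citric acid cycle, varied the most between cows of the nuclear groups. Its 4 genes summed to 422 to 705 CPM in supplemented cows (median 612) and 431 to 751 CPM in control cows (median 626). SDHA, the flavoprotein that oxidises succinate, was at 308, 222, 337, 267, 307 and 165 CPM in supplemented cows 1 to 6. In control cows 1 to 6 SDHA was at 347, 375, 323, 223, 205 and 323 CPM. Its 4 lowest libraries, supplemented cows 6 and 2 and control cows 5 and 4, are also those with the lowest B cell marker sums. SDHB, the iron-sulphur subunit, was lowest in supplemented cow 6 (89.1 CPM) and control cow 4 (104 CPM), and reached 181 CPM in a supplemented cow and 178 CPM in a control cow. SDHD, a membrane anchor, had 73.2 to 128 CPM in supplemented cows (median 97.9) and 49.2 to 132 CPM in control cows (median 76.8), with a log2 fold change of 0.30 ± 0.22 (SE). SDHC, the other anchor, followed neither pattern and was highest in supplemented cow 6, at 94.2 CPM. The part of cell composition in these levels was not tested.

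In complex III, UQCRFS1, the Rieske iron-sulphur protein that takes electrons from ubiquinol, came nearest to a difference between groups of all 92 genes. It had 100.2, 103, 84.0, 81.3, 82.9 and 78.7 CPM in supplemented cows 1 to 6. In control cows 1 to 6 it had 85.2, 83.1, 73.1, 50.5, 83.5 and 67.2 CPM. The groups overlapped: the 2 highest libraries were supplemented cows 2 and 1 and the 3 lowest were control cows 4, 6 and 3, while the others lay mixed between 78.7 and 85.2 CPM. The log2 fold change was 0.26 ± 0.14 (SE), with an unadjusted edgeR p of 0.0913 and an adjusted p of 0.999. UQCRQ, a small subunit, had the lowest p in the other direction, at 26.9 ± 4.31 CPM in the supplemented group, against 30.6 ± 3.96 CPM in the control group (SD, 6 cows each). Its log2 fold change was -0.18 ± 0.14 (SE), or -0.12 ± 0.13 without supplemented cow 6. UQCRC1, a core subunit facing the matrix, averaged 186 ± 24.2 CPM in the supplemented group, against 174 ± 12.2 CPM in the control group (SD, 6 cows each).

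Complex IV held the clearest isoform pattern. The isoforms found in most tissues were counted in every library: COX4I1 had 431 to 546 CPM in supplemented cows and 449 to 538 CPM in control cows, and COX6A1 had 102 to 195 CPM in supplemented cows and 88.3 to 178 CPM in control cows. Most of their tissue-restricted partners were at or near 0. COX4I2, best known from lung, had 0 counts in all 12 libraries, which allows up to 0.0256 CPM over the summed depth. COX7B2 and COX6B2, both known from testis, had 6 and 23 counts in all, the heart and muscle form COX6A2 had 74, and NDUFA4L2, a hypoxia-induced relative of NDUFA4, had 16. These 5 genes are the ones below the count minimum. The muscle form COX7A1 passed the minimum at 1.22 to 3.97 CPM in supplemented (median 2.52) and 1.59 to 6.23 CPM in control cows (median 3.82), with a log2 fold change of -0.54 ± 0.37 (SE). COX8B, known as the heart and muscle form in other mammals, was counted in every library, at 8.88 to 19.0 CPM in supplemented cows and 13.8 to 21.4 CPM in control cows, beside 107 to 165 CPM of COX8A in supplemented cows and 122 to 156 CPM in control cows.

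Of the remaining complex IV genes, COX5A and COX5B, both structural subunits around the catalytic core, were nearly level. COX5A averaged 121 ± 10.9 CPM in the supplemented group, against 115 ± 19 CPM in the control group, and COX5B 179.9 ± 20.9 CPM in the supplemented group, against 169 ± 16 CPM in the control group (SD, 6 cows each). COX7A2, the widespread partner of COX7A1, had the largest positive fold change of the nuclear complex IV genes, 0.21 ± 0.18 (log2, SE), and 0.029 ± 0.12 without supplemented cow 6. Its value of 159 CPM in supplemented cow 6 lay above all others, which reached 101 CPM in supplemented cows and 103 CPM in control cows. COX6B1, a subunit on the outer face of the complex, was likewise highest in that library, at 131 CPM, against at most 98.7 CPM in control cows. COX7A2L, which promotes the joining of complexes III and IV into supercomplexes, had the lowest p of the positive complex IV genes and averaged 157 ± 13 CPM in the supplemented group, against 142 ± 21.9 CPM in the control group (SD, 6 cows each).

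In complex V the groups overlapped for both genes of the catalytic pair. ATP5F1A, the alpha subunit, had 567 to 857 CPM in supplemented (median 755) and 536 to 794 CPM in control cows (median 755). ATP5F1B, the beta subunit, had 436 to 679 CPM in supplemented (median 592) and 414 to 655 CPM in control cows (median 625). Both were lowest in control cow 4. The nuclear genes ATP5MC1, ATP5MC2 and ATP5MC3 all encode the same mature subunit c, which forms the rotating ring. ATP5MC1 varied most of them, with 19.6 to 56.9 CPM in supplemented cows and 28.3 to 69.6 CPM in control cows, lowest in supplemented cow 6 and control cow 5. ATP5MC2 had 104 to 171 CPM in supplemented cows and 128 to 191 CPM in control cows, again lowest in supplemented cow 6. ATP5MC3 stayed within 87.5 to 126 CPM in supplemented cows and 76.4 to 114 CPM in control cows. ATP5PB, of the peripheral stalk, had the largest positive fold change of complex V, 0.34 ± 0.21 (log2, SE), and this came from supplemented cow 6: the library held 339.6 CPM, whereas the other supplemented cows had 128 to 174 CPM and control cows 134 to 164 CPM. Without that cow the log2 fold change of ATP5PB was 0.093.

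Most respiratory chain genes varied little between cows for their level. The SD of log2 CPM over the 12 libraries had a median of 0.22 for the nuclear genes (0.089 to 1.02) and 0.29 for the mtDNA genes (0.20 to 0.39). Each gene was set among the tested genes nearest in mean level, up to 500 of them. For most mtDNA genes, near the top of the range, the set was smaller and lay mostly below them in level. In these sets 68 of the 79 nuclear genes and 11 of the 13 mtDNA genes were below the 50th percentile of SD. Highest and lowest library differed by less than 2-fold for 58 nuclear and 7 mtDNA genes. The steadiest were ATP5PD, a stalk subunit of complex V, and the complex I accessory subunits NDUFB2 and NDUFS6. ATP5PD had 182 to 220 CPM in supplemented cows and 181 to 208 CPM in control cows (SD 0.089), and NDUFB2 36.1 to 43.6 CPM in supplemented cows and 40.4 to 47.0 CPM in control cows (SD 0.11). NDUFS6 had 38.6 to 50.3 CPM in supplemented cows and 41.1 to 49.6 CPM in control cows (SD 0.11). Taken as a ratio to the other genes of the same genome, the median SD was 0.13 for mtDNA and 0.19 for nuclear genes, so the mtDNA genes moved more in common and the nuclear genes more singly.

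**Figure D2:**
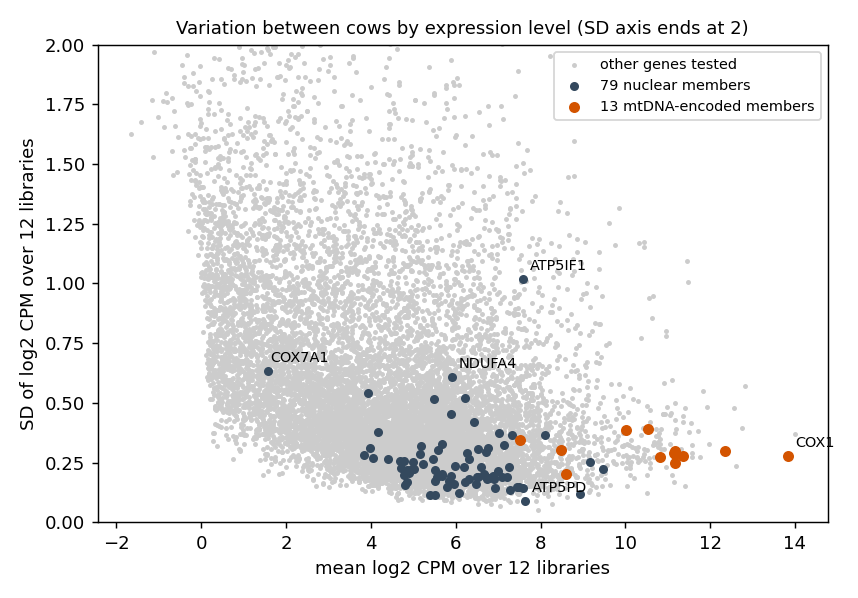
Standard deviation of log2 CPM over the 12 libraries (vertical axis, ending at 2) against mean log2 CPM (horizontal axis) for the genes tested. Dark points are the 79 nuclear and orange points the 13 mtDNA respiratory chain genes, and grey points are the other genes. Most of the 92 genes lie low among genes of their level, ATP5PD lowest at 0.089. The largest SDs are those of ATP5IF1 at 1.02, COX7A1 at 0.63 and NDUFA4 at 0.61, of which COX7A1 is at the 42.4th percentile of genes of its level.

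The genes that did vary fell into different patterns. NDUFA4, first described in complex I and now placed in complex IV, had 47.6, 93.7, 36.3, 68.1, 57.0 and 95.8 CPM in supplemented cows 1 to 6. In control cows 1 to 6 it had 39.0, 44.5, 56.4, 83.9, 126 and 35.4 CPM. Its 4 highest libraries were control cow 5, supplemented cows 6 and 2 and control cow 4, the same ones in which SDHA was lowest. COX6A1 was highest in these libraries too, at 195 CPM in supplemented cow 6, 167 CPM in supplemented cow 2, 178 CPM in control cow 4 and 176 CPM in control cow 5, with no other library above 127 CPM. The 6 monocyte markers found summed to 3059.8 and 6564 CPM in supplemented cows 6 and 2 and to 4160.3 and 3879 CPM in control cows 5 and 4, and to at most 2585 CPM in the other libraries. Monocyte markers were not alone in this. The 13 neutrophil markers were highest in the same libraries, at 108102 and 5512 CPM in supplemented cows 6 and 2. They summed to 6234 and 14481 CPM in control cows 5 and 4, and to at most 2585 CPM elsewhere. B cell marker sums were lowest in these 4 libraries. Other lists were high in some of them. Natural killer and cytotoxic markers were highest in supplemented cows 6 and 2 and control cow 5, and T cell markers in supplemented cow 2 and control cow 5. Platelet markers were highest in control cow 5 and supplemented cows 2 and 6. For each of these lists, supplemented cow 4 or 5 lay above control cow 4. The part of cell composition in these levels was not tested. Among genes picked after their values were seen, NDUFB5 and NDUFA12, both complex I accessory subunits, were low in the same 4 libraries: NDUFB5 had 45.8 and 47.3 CPM in supplemented cows 6 and 2 and 50.1 and 43.0 CPM in control cows 5 and 4, against at least 76.6 CPM in the others. NDUFV3, a small complex I subunit picked in the same way, was high in supplemented cow 6 alone, at 151 CPM, with 44.5 to 62.4 CPM elsewhere.

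**Figure D3:**
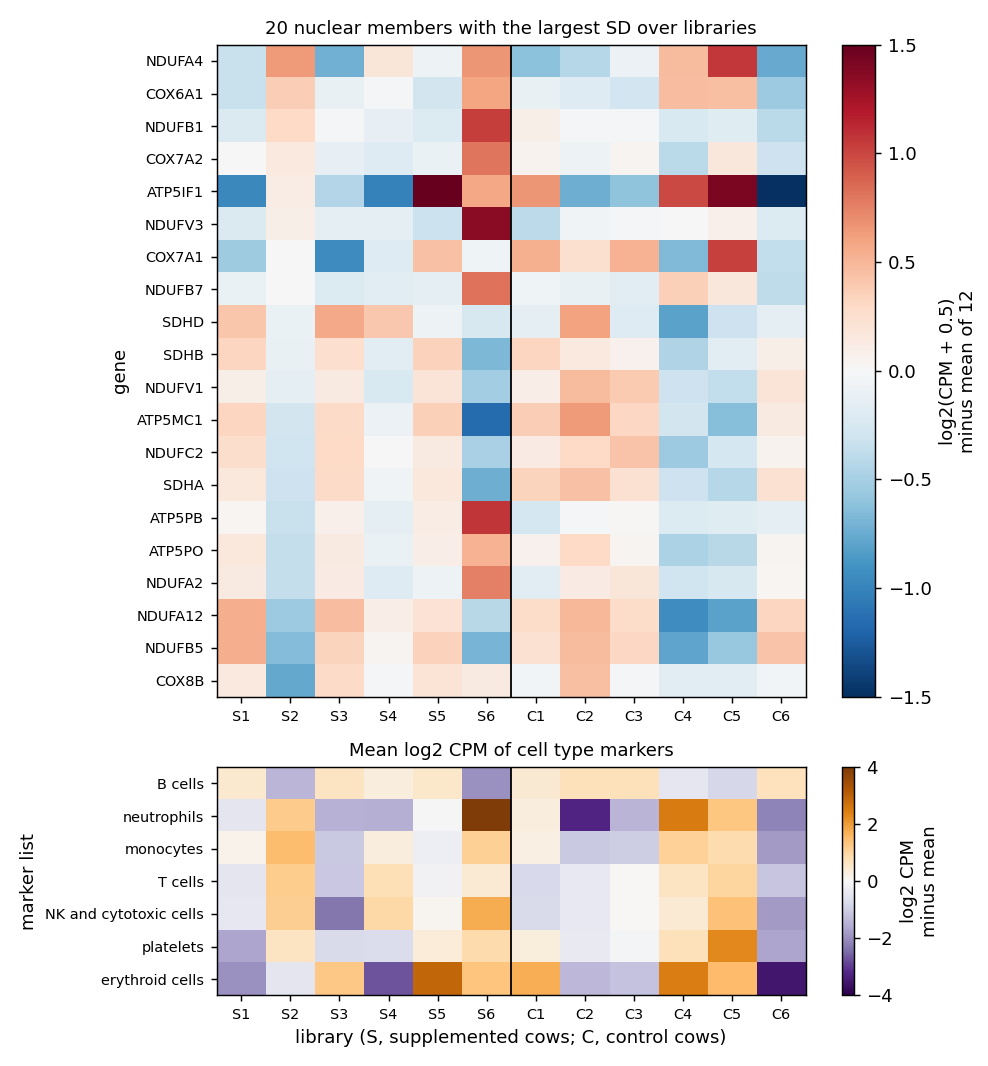
The 20 nuclear genes with the largest SD over the 12 libraries (upper panel, log2 of CPM + 0.5 minus the mean of 12) and the mean log2 CPM of cell type markers (lower panel, minus the mean of 12), by library (S, supplemented cows; C, control cows). Red and orange are above the mean of a row and blue and purple below it, with the colour scale ending at 1.5 in the upper and at 4 in the lower panel. SDHA, NDUFB5 and NDUFA12 are low and NDUFA4 and COX6A1 high in S2, S6, C4 and C5, where B cell markers are also low.

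ATP5IF1, the inhibitor that keeps ATP synthase from running backwards, varied most of all 92 genes. It had 97.5, 207, 140.4, 94.7, 547 and 286 CPM in supplemented cows 1 to 6. In control cows 1 to 6 it had 303, 115, 126, 379, 511 and 66.5 CPM. Cows of both groups were at both ends, the medians were 174 CPM in supplemented cows and 214 CPM in control cows, and highest and lowest library differed 8.23-fold. In zebrafish, the protein is also known to support haem synthesis in developing red cells. ALAS2, the first enzyme of haem synthesis in red cell precursors, was highest in supplemented cow 5 (48.6 CPM), control cow 4 (44.9 CPM) and control cow 5 (32.5 CPM), the 3 libraries with the most ATP5IF1. It was lowest in supplemented cow 4 (0.422 CPM) and control cow 6 (0.741 CPM), which also had the least ATP5IF1. The other libraries lay between these ends for both genes, but not always in the same order. Supplemented cow 3 had more ALAS2 than supplemented cow 2 (20.9 against 6.81 CPM) but less ATP5IF1 (140.4 against 207 CPM). The beta-globin gene HBB, part of which escaped depletion, ran from 5.41 CPM in supplemented cow 4 to 239 CPM in supplemented cow 5, and from 2.22 CPM in control cow 6 to 205 CPM in control cow 4. The 7 erythroid markers found summed to 7.10 to 386 CPM in supplemented cows and 2.97 to 305 CPM in control cows, and their part in the ATP5IF1 level was not tested. No other gene of complex V came near this spread, ATP5MC1 being next with an SD of 0.52.

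**Figure D4:**
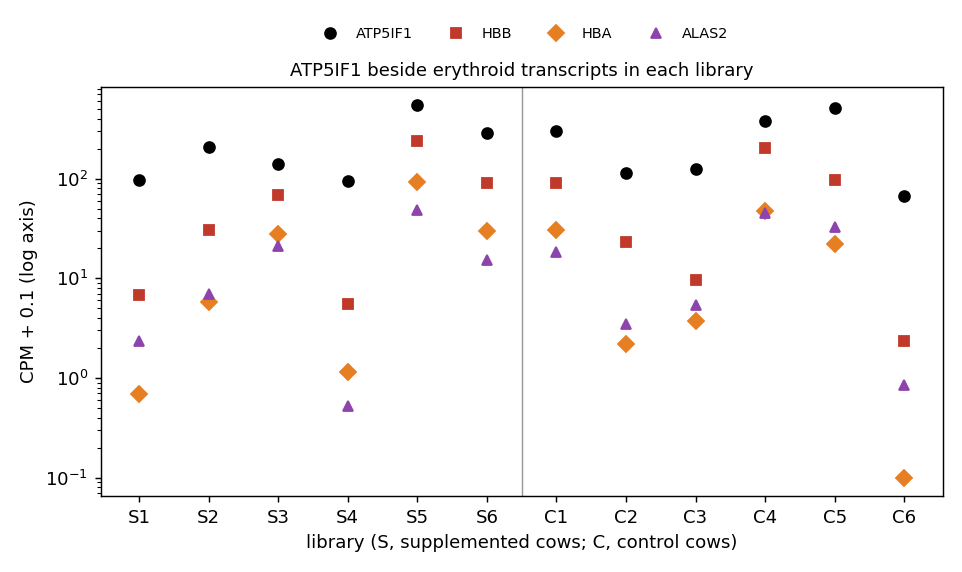
Level of ATP5IF1 and of the erythroid transcripts HBB, HBA and ALAS2 in each library (vertical axis, CPM + 0.1 on a log scale; S, supplemented cows; C, control cows). ATP5IF1 is highest at 547 CPM in S5 and 511 CPM in C5 and lowest at 66.5 CPM in C6, and HBB and ALAS2 are low where it is low.

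The second comparison asked whether the chain differed between supplemented and control cows. No respiratory chain gene passed the test: 0 of 92 had an adjusted p below 0.05 in edgeR's quasi-likelihood test with Benjamini-Hochberg adjustment over all genes tested, where 0 of 11990 did (0%). At an unadjusted p below 0.05 there were 0 of 92, against 191 of 11990 (1.59%), and in 0 of 92 did the 2 groups not overlap, against 6 of 11990 (0.05%). DESeq2 called 2 genes of the whole table and limma-voom called 0, none of them a respiratory chain gene. In the authors' deposited DESeq2 table, all 92 genes were present, and 89 had the same sign as in edgeR. None had a p-value below 0.05, the lowest being 0.0718 for UQCRFS1. The share of all genes below 0.05 in that table was not counted. In the DESeq2 fit run here that share was 2.42%, with 0 of the 92 genes among them.

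Fold changes were small and lay on both sides of zero. Of the 92 genes 57 had a positive log2 fold change and 35 a negative one, where 51.5% of all genes tested were positive, and their median was 0.049, against 0.010 for all genes. By genome, 9 of 13 mtDNA genes were positive with a median of 0.072, and 48 of 79 nuclear genes with a median of 0.027, which turned to -0.0047 with upper-quartile scaling and to -0.032 without a scaling factor. By complex, positive nuclear genes numbered 19 of 37 in complex I (median 0.0095), 2 of 4 in complex II (median -0.010), 5 of 8 in complex III (median 0.047), 9 of 12 in complex IV (median 0.070) and 13 of 18 in complex V (median 0.058). Single nuclear genes ran from -0.17 to 0.33 in complex I, -0.16 to 0.30 in complex II, -0.18 to 0.26 in complex III, -0.54 to 0.21 in complex IV and -0.16 to 0.34 in complex V. Without supplemented cow 1, 7 of 13 mtDNA genes were positive, with a median of 0.0093 against 0.012 for all genes. Without supplemented cow 6 all 13 mtDNA genes were positive, with a median of 0.17 against -0.0049 for all genes, and the nuclear median was 0.0095. None of the 13 then had an unadjusted p below 0.05, where 1.63% of all genes did. The genes of 1 genome are counted from the same RNA of the same cows, so their common sign is not a set of separate observations.

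**Figure D5:**
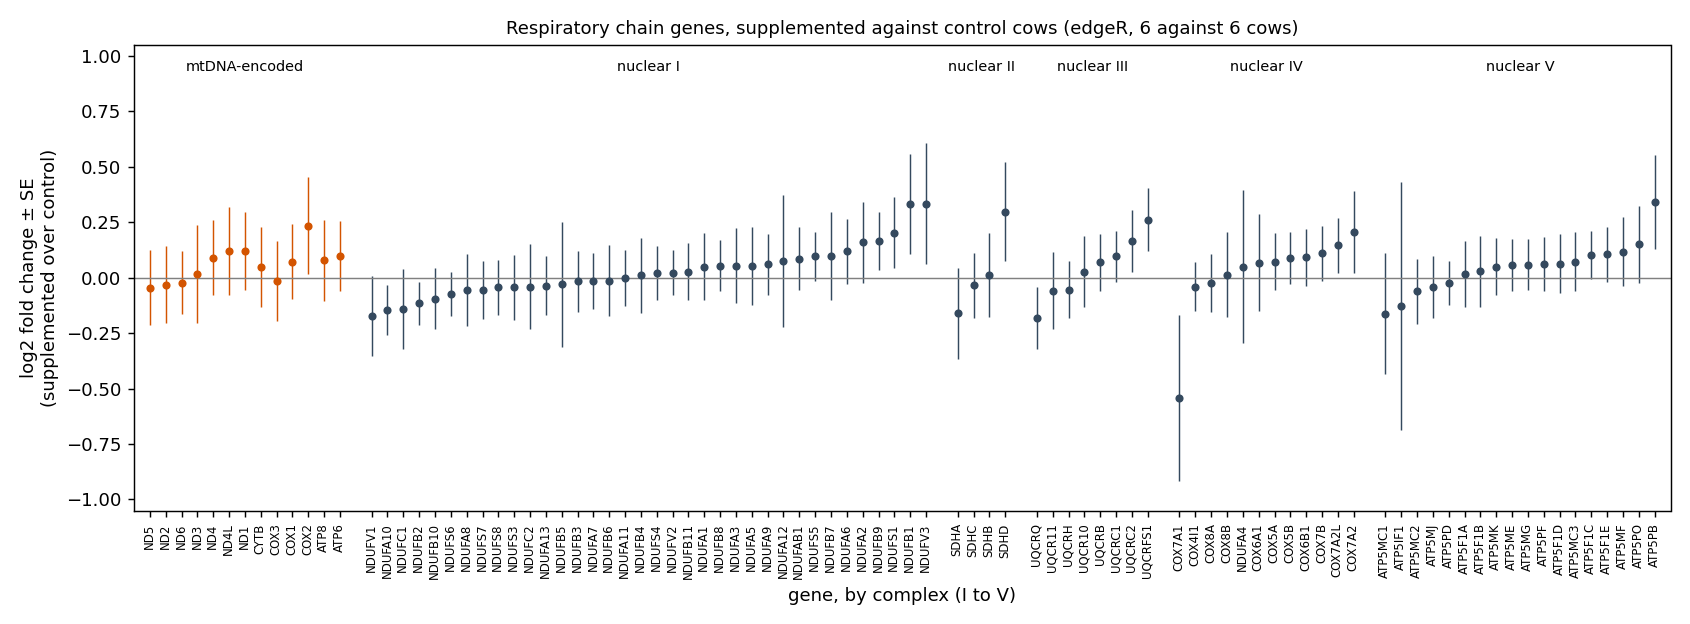
Log2 fold change (supplemented over control cows, 6 against 6) of 91 genes by genome and complex, with its standard error as a bar. The values run from -0.54 for COX7A1 to 0.34 for ATP5PB, and no gene passed the test.

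Of the index sequences in the deposited sequencing summary, only the part before any plus sign was used, and the rest was left out. That part, called the index here, takes 2 forms that fall unevenly over the groups. The first is shared by 5 supplemented and 3 control libraries, and the other by 1 supplemented and 3 control libraries. With the index as a term the mtDNA median was 0.11 with 12 of 13 positive, and within the first index alone it was 0.22 with 12 of 13 positive. UQCRFS1 alone of the 92 had an unadjusted p below 0.05 with the index as a term (0.0449), where 1.2% of all genes did. Within the first index NDUFS1, SDHD and UQCRC2, the other core subunit of complex III, had an unadjusted p below 0.05, the lowest being 0.0132, so 3 of 92 where 2.41% of all genes did. Neither fit had an adjusted p below 0.05 for any of the 92 genes. The other index holds 1 supplemented library only and gives no value of its own.

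Genes that build, express or feed the chain were also not separated between groups, with 0 past the threshold in each list. Of 53 assembly factors tested, 19 had a log2 fold change above 0 and 34 below it (median -0.048). BCS1L, which inserts the Rieske protein into complex III, was at -0.47 ± 0.22 and COA4, a factor of complex IV, at 0.39 ± 0.25 (log2 fold change, SE). Of 42 tested genes for expression and upkeep of mtDNA, 19 were positive (median -0.043). TEFM, the elongation factor of mitochondrial transcription, was at 0.58 ± 0.29 and FASTKD5, which helps to process its precursor RNA, at 0.36 ± 0.17. TFAM, which packages mtDNA and starts its transcription, was picked after its values were seen and averaged 19.4 ± 3.79 CPM in the supplemented group, against 19.6 ± 2.55 CPM in the control group (SD, 6 cows each).

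Of 76 mitochondrial ribosomal protein genes tested, 31 were positive (median -0.034) and 1, MRPL33, had an unadjusted p below 0.05, at 0.60 ± 0.27 (log2 fold change, SE), where 1.59% of all genes had such a p. The other with the lowest p was MRPS10, at 0.23 ± 0.11. Regulators of mitochondrial biogenesis were positive in 8 of 15 (median 0.013), with YY1, a transcription factor, at 0.28 ± 0.15 and the nuclear receptor PPARD at 0.75 ± 0.51. Citric acid cycle genes were positive in 10 of 19 (median 0.011), with DLD, the shared lipoamide dehydrogenase, at 0.28 ± 0.14 and PDHA1, of the pyruvate dehydrogenase complex, at 0.23 ± 0.12. Electron carriers outside the naming rule were positive in 4 of 17 (median -0.082), with ETFDH, which passes electrons from fatty acid oxidation to ubiquinone, at -0.32 ± 0.23 and COQ9, a ubiquinone synthesis protein, at -0.19 ± 0.17. CYC1 averaged 126 ± 21.1 CPM in the supplemented group, against 132 ± 22.3 CPM in the control group (SD, 6 cows each). The lowest adjusted edgeR p of these lists was 0.999.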

How the data were processed

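The count table was taken as the authors deposited it, with whole-number read counts per gene. FastQC, STAR, featureCounts, DESeq2 and the build ARS-UCD1.2 are listed in the submitters' processing notes with no role or version. Neither the annotation nor the strand setting is given in the sources used here. The authors' deposited DESeq2 table gives, per the file headers, a mean normalised signal, log2 fold changes with their SE, a test score and p-values. A deposited sequencing summary gives clusters, a mean quality score and index sequences.

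The respiratory chain genes, gene lists and marker lists were chosen with earlier results of these data known. All genes whose mean count reached 10 were tested with edgeR 4.0.16 in R 4.3.3 (quasi-likelihood, TMM, robust, two-sided, Benjamini-Hochberg over 11990 genes, threshold 0.05). The common biological coefficient of variation was 0.476, and the SE is the absolute log2 fold change over the square root of F. CPM were scaled by TMM factors, with a prior count of 2 before taking log2. Libraries are separate cows per the labels, and no pair within a group differed by sampling noise alone (chi-square per degree of freedom at least 16.2). Replicate numbers only name cows. Columns of other samples numbered 0. The fit was also tested on simulated counts.

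Named were all mtDNA genes, central subunits, isoform families, ATP5IF1, the gene with the lowest p in each direction per complex, those with an unadjusted p below 0.05, the 3 most and 3 least variable, and the 2 lowest p of each other list. SDHC, UQCRC2, NDUFB5, NDUFA12, NDUFV3, TFAM and CYC1 were added after their values were seen. Symbols matched RefSeq for all 92 genes, and 1 of them is counted but not reported here. Alternatives were DESeq2 1.42.0, limma-voom (limma 3.58.1), other scalings and filters, the index as a term, and leaving out each library. Figures used Python 3.11.15 and matplotlib 3.10.9. Intervals of shares cover counting error only.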

Additional observations from a re-analysis of the deposited data

Results flagged for a closer look

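Single libraries that lay far from the other 5 of their group were looked for in 114 sets of 6 values, and 17 were found, of which 10 were in supplemented cow 6. For separate sets of normally distributed values, chance alone would flag about 1 in 20. These sets share the same 12 libraries and mostly hold CPM without log. Some of the genes were also named for their p or SD in these data, among them NDUFB1 and ATP5PB. That rate therefore need not hold here.

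In supplemented cow 6, the mtDNA genes were low at 1.75% of counts and the log2 ratio of mtDNA to nuclear counts was low at 1.59. Its COX2 was low at 951 CPM and its ND4 at 1723 CPM, as was the subunit c gene ATP5MC2 at 104 CPM. Its ATP5PB was high at 339.6 CPM, COX6B1 at 131 CPM, COX7A2 at 159 CPM and NDUFB1 at 37.3 CPM. The same library had the high neutrophil marker sum, 108102 CPM.

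Elsewhere, COX8B was low in supplemented cow 2 at 8.88 CPM and high in control cow 2 at 21.4 CPM, where SDHD was also high at 132 CPM. Among the marker sums, erythroid cells stood out in supplemented cow 5 (386 CPM), platelets in control cow 5 (2807 CPM), and eosinophils in supplemented cow 2 (153 CPM) and in control cow 5 (163 CPM).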

How the results depend on the processing

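The count of respiratory chain genes past the threshold was 0 under every scaling, filter, tool and index setting run and with each library left out. The mtDNA median stayed positive throughout, but was as low as 0.0093 without supplemented cow 1, against 0.012 for all genes. It was 0.029 without supplemented cow 3 and 0.028 without supplemented cow 5. The nuclear median turned negative with upper-quartile scaling (-0.0047), without a scaling factor (-0.032) and without control cow 4 (-0.00052); the cause was not tested. The difference in the log2 mtDNA to nuclear ratio ran from -0.029 to 0.14 with single libraries left out. The median SD of the mtDNA genes was 0.35 under upper-quartile scaling, 0.41 without a scaling factor, and 0.23 to 0.30 with single libraries left out, lowest without supplemented cow 6. No paired analysis was possible because the replicate numbers follow accession order and pair no cows.

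Of 44 named genes, 16 turned sign in 27 of 440 comparisons with other settings, none of them past the threshold; the cause was not tested. Under upper-quartile scaling ATP5F1A was -0.0089, ATP5F1B -0.0047, COX8B -0.026 and SDHB -0.0061. Without a scaling factor ATP5F1A was -0.030, ATP5F1B -0.032, COX6A1 -0.023, COX6B1 -0.0016, COX8B -0.057, ND3 -0.010, NDUFA4 -0.029 and SDHB -0.024. With limma-voom ND3 was -0.014 and SDHB -0.0062. With the index as a term COX3 was 0.027, COX8B -0.042, ND2 0.019 and ND6 0.0022. Within the first index ATP5MC1 was 0.18, COX3 0.11, COX6A1 -0.24, COX8A 0.047, ND2 0.13, ND5 0.072, NDUFA4 -0.54, NDUFV1 0.0049 and SDHA 0.14. With single libraries left out, 27 of the 44 kept their sign. The others ranged from -0.049 to 0.085 for ATP5F1A, -0.045 to 0.099 for ATP5F1B, -0.60 to 0.21 for ATP5IF1, -0.11 to 0.032 for ATP5MC2, -0.055 to 0.0017 for ATP5PD, -0.074 to 0.099 for COX3, -0.057 to 0.19 for COX6A1, -0.010 to 0.14 for COX6B1, -0.077 to 0.043 for COX8A, -0.039 to 0.13 for COX8B, -0.018 to 0.16 for CYTB, -0.11 to 0.082 for ND2, -0.086 to 0.15 for ND3, -0.14 to 0.061 for ND5, -0.076 to 0.062 for ND6, -0.079 to 0.36 for NDUFA4 and -0.060 to 0.13 for SDHB.

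A p that misses the threshold does not show that levels were equal. The planned motif and protein comparisons were not run, since no sequences were used here.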
